A study of Mus musculus with 19 samples.

Results

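MHC class I molecules and the machinery that loads them with peptides were followed through 9 genes of single mouse embryos: H2-K1, H2-D1, B2m, Tap1, Tap2, Tapbp, Psmb8, Psmb9 and Ubd. These are 9 of 53379 genes in the table of read counts, picked by name because they belong to this pathway and because H2-K1 and Ubd differed between blastocysts of heterozygous crosses and WT blastocysts. That contrast therefore chose the genes, and its values are given below as a description with no test. Each of the 19 libraries was made from the polyA RNA of 1 embryo at 96 hours after insemination. The embryos came from in vitro fertilization and culture in KSOM medium. All carry the strain label B6D2F1, the name of the F1 hybrid of C57BL/6 and DBA/2. Offspring of B6D2F1 parents can differ from each other in their C57BL/6 and DBA/2 alleles, and the labels do not give these. From Alyref+/- by Alyref+/- fertilizations came 2 morulae labelled Alyref KO, 3 morulae not called KO and 3 such blastocysts. From Gabpb1+/- by Gabpb1+/- fertilizations came 3 morulae labelled Gabpb1 KO, 2 morulae not called KO and 3 such blastocysts. These non-KO embryos of both crosses are labelled as WT or hetero, so the 2 genotypes are not separated. The last group is 3 WT blastocysts from WT B6D2F1 parents.

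MHC class I molecules are a heavy chain, here H2-K1 or H2-D1, held at the cell surface with the light chain beta-2 microglobulin (B2m) and a short peptide from inside the cell. The proteasome cuts proteins into such peptides, and in immune or interferon-treated cells the subunits Psmb8, Psmb9 and Psmb10 take the places of the constitutive Psmb5, Psmb6 and Psmb7. Tap1 and Tap2 form the transporter that carries peptides into the endoplasmic reticulum, and tapasin (Tapbp) bridges it to the empty class I molecule. Ubd, also called FAT10, is a ubiquitin-like protein whose gene lies in the MHC region and that marks proteins for the proteasome. Classical class I expression is known to be low in preimplantation embryos and to be raised by interferon and by the transactivator Nlrc5.

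The targeted genes were read first. Alyref, an mRNA export adaptor, was at 53.1 ± 7.57 CPM (read counts scaled to the library total; SD, n = 2) in the morulae labelled Alyref KO and at 221 ± 65.6 (n = 3) in their non-KO siblings. Gabpb1, a subunit of the GABP transcription factor, had 163 ± 91.2 CPM (n = 3) in the morulae that carry the label Gabpb1 KO and 88.6 ± 7.46 (n = 2) in their non-KO siblings, so it was not lower there and those embryos are called by their label throughout. Gene counts per library ran from 7486125 to 31536282 with a median of 13633603, and 3 counts correspond to 0.0967 to 0.396 CPM. Summed markers of trophectoderm, the outer layer of the blastocyst, were at 4103 to 6694 CPM in the 9 blastocysts and at 350.4 to 4067 CPM in the 10 morulae, with the Gabpb1 non-KO morulae highest among the latter at 2531 and 4067. The 7 blood and immune markers summed to 5.05 to 131.6 CPM, with counts for 4 of the 7 in the highest embryo, morula 2 of those labelled Gabpb1 KO. Ptprc, the marker of all leukocytes and 1 of the 7, had at most 1 count in any embryo, so the high sums come from other markers of the list. The source of these reads was not tested.

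In the deposited coordinates (mm10), 8 of the 9 genes lie on chromosome 17. H2-K1 is at chr17:33996017-34000333 on the minus strand, H2-D1 at chr17:35262730-35267499 on the plus strand and Ubd at chr17:37193892-37196095 on the plus strand. Tapbp (chr17:33915899-33929288, plus), Psmb9 (chr17:34181988-34187764, minus), Tap1 (chr17:34187553-34197225, plus), Psmb8 (chr17:34197721-34201454, plus) and Tap2 (chr17:34203527-34216321, plus) lie between them or beside H2-K1. B2m is alone on chromosome 2 at chr2:122147686-122153083, on the plus strand. All are protein-coding, and the counts are over all their annotated exons, UTRs included.

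The stretches before the transcription starts of H2-K1, B2m and Ubd are shown because the results below turn on these genes. They are the 250 bases before the RefSeq start of each gene (GRCm38.p6), written 5′ to 3′ on the strand of the gene, with motif matches in capitals. ATTGG is CCAAT read on the opposite strand, GGGATTCCC is a kB element and TGACGC is the core of the X2 box. GAAA, then any 2 bases, then GAAA again is the form in which the interferon-stimulated response element was searched. Looser forms of the motifs were not searched and stay in lower case.
H2-K1, chr17:34000348-34000597, minus strand: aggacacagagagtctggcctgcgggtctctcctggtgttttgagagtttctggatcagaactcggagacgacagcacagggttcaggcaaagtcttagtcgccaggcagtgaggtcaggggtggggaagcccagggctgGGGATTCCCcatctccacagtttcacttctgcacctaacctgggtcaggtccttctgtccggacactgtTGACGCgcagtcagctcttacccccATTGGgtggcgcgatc
B2m, chr2:122147437-122147686, plus strand: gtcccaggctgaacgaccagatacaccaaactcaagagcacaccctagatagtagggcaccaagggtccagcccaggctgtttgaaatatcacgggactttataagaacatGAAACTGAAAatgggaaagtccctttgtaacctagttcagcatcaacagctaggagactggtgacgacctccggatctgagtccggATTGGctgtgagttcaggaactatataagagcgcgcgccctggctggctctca
Ubd, chr17:37193642-37193891, plus strand: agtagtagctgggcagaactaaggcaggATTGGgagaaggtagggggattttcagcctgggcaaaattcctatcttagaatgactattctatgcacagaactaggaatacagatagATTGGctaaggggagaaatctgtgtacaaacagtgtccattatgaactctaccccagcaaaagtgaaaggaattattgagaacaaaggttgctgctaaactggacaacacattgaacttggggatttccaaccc

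Of the 9 genes, 8 were in the promoter table and Tap2 was not. Searched on both strands, GGGATTCCC was found in 0.301% of 32851 RefSeq promoters of this length and in H2-K1 and H2-D1 among the 8 genes. The same H2-K1 and H2-D1 held TGACGC, found in 6.12% of all promoters. The kB elements of both heavy chain genes are set side by side here with their flanks.
H2-K1, chr17:34000438-34000467, minus strand: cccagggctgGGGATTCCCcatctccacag
H2-D1, chr17:35262914-35262943, plus strand: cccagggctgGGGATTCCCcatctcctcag
The element begins 110 bases before the start of H2-K1 and 170 bases before that of H2-D1. B2m held the searched form of the interferon-stimulated response element from 139 to 130 bases before its start, present in 2.98% of all promoters. Psmb8 held the gamma-activated site TTCNNNGAA, present in 7.02%. A gene without a match may hold an element in another form, which was not searched. CCAAT was found in 7 of the 8, all but Psmb8, and in 33.8% of all promoters, and CCGGAAG, the core of a GABP site, was found in none of the 8 and in 6.91% of all. These are matches of letters, with no overlap between the motifs in capitals, and say nothing on binding.

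Transcript levels were compared between genes per kilobase of exon (FPKM). B2m had the highest mean, 79.53 FPKM over the 19 embryos (range 20.09 to 235.2), followed by H2-D1 at 31.08 (7.547 to 80.62) and H2-K1 at 14.92 (4.049 to 29.61). Psmb9 averaged 3.79 FPKM (0.2333 to 11.32), Tap1 1.554 (0.09568 to 6.418) and Tapbp 0.7584, and Ubd, Tap2 and Psmb8 averaged 0.3657, 0.2237 and 0.01434. The light chain and both classical heavy chains were thus detected in all 19 embryos, and the transporter, tapasin and the immunoproteasome subunits were low. Between the highest and the lowest embryo CPM differed 64.35-fold for Tap1, 46.07-fold for Psmb9, 11.77-fold for B2m, 9.711-fold for H2-D1, 7.596-fold for H2-K1 and 7.414-fold for Tapbp. For testing, genes needed 1 FPKM in at least 2 embryos, and 7 of the 9 passed. Psmb8 and Tap2 did not, and Ubd passed only through the 3 WT blastocysts and had at most 3 counts in any other embryo, which leaves 6 genes with tests.

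**Figure D1:**
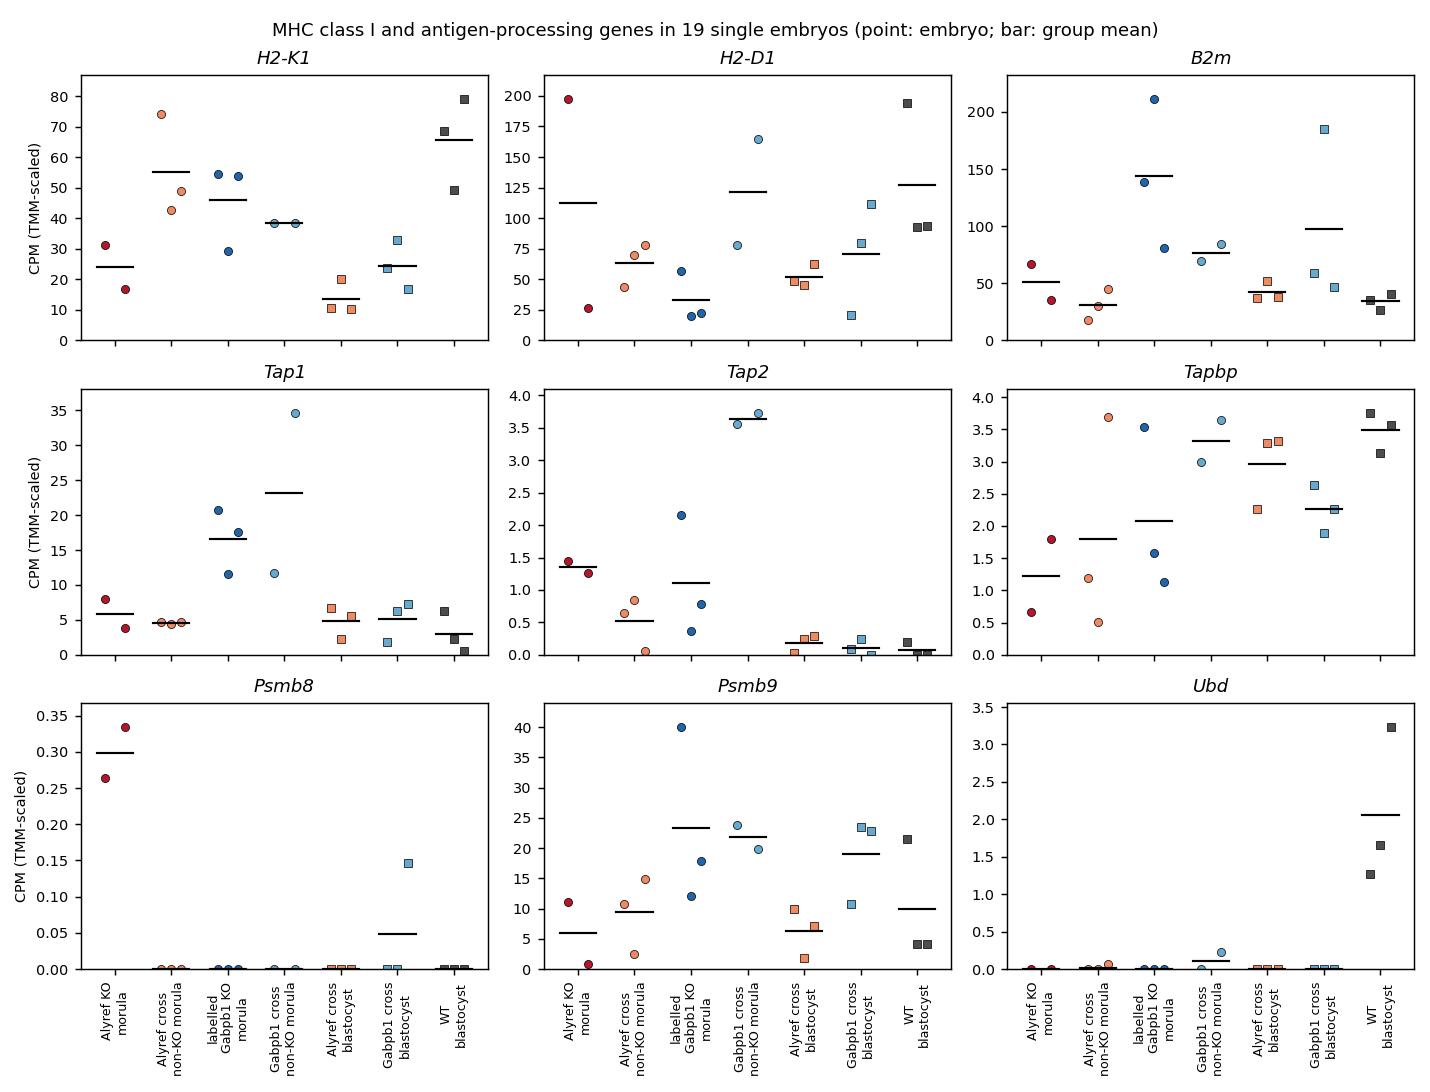
CPM of each of the 9 genes (linear vertical axes from 0, each panel with its own scale) in the 19 embryos, by group; points are embryos and bars are group means. H2-K1 is high in WT blastocysts (49.5 to 79.3 CPM) and low in blastocysts of both crosses (10.4 to 32.9), B2m is highest in the morulae labelled Gabpb1 KO (81.1 to 212), and Ubd has more than 3 counts only in WT blastocysts.

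The highest H2-K1 value of a group was between 1- and 1.95-fold that of the lowest in each of the 7 groups, whereas each of the other 5 tested genes differed more than that in at least 1 group. The 3 WT blastocysts were at 68.8, 49.5 and 79.3 CPM, and the 3 Alyref non-KO morulae at 74.2, 42.7 and 49.0. The morulae labelled Gabpb1 KO were at 54.5, 29.4 and 54.0 CPM, and the Gabpb1 non-KO morulae at 38.35 and 38.34. These groups made up the upper part of the order of means, and the range of each overlapped that of the next.

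The lower part of the H2-K1 order held the Gabpb1 non-KO blastocysts (23.7, 32.9 and 16.9 CPM), the morulae labelled Alyref KO (31.3 and 17.01) and the Alyref non-KO blastocysts (10.7, 20.0 and 10.4). The Gabpb1 non-KO morulae lay above the Gabpb1 non-KO blastocysts with no overlap, and every other pair of neighbours in the order overlapped. Within the Alyref cross, every blastocyst lay below every non-KO morula, and both Alyref KO morulae lay below all 3 non-KO morulae. How many other genes separate these small groups in the same way was not counted. At an unadjusted p under 0.05 (edgeR), 31.1% of all genes differed in the blastocyst comparison and 12.1% in the KO comparison.

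H2-K1 was lower in Alyref non-KO blastocysts than in non-KO morulae of the same cross, with a log2 fold change of -2.01 ± 0.37 (SE) and an adjusted p of 0.0078 by edgeR's quasi-likelihood test. It was the single call among the 6 genes there, in a comparison in which 13% of all tested genes were called and 7.43% were called lower. The call was lost with library sizes from the spike-in RNA (-2.35, adjusted p = 0.0753) and with only the compared groups in the fit (-1.97, adjusted p = 0.0529). The same blastocysts are also those in which H2-K1 was first seen to be low against WT, so this value is not independent of the choice of the gene. Trophectoderm markers, all 8 of 8 being in the table, went the other way. They summed to 617.5 to 1896 CPM in these morulae and to 4161 to 6694 CPM in these blastocysts. The 6 epiblast and inner cell mass markers summed to 544.3 to 585.3 CPM in the morulae and to 173.4 to 218.6 in the blastocysts, and the 10 cumulus and granulosa markers to 12.3 to 22.1 and to 4.578 to 8.538. The part of these cell types in the difference was not tested. In whole embryos, fewer cells of a type and less RNA per cell cannot be told apart.

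The other H2-K1 differences did not pass. Alyref KO morulae differed from non-KO morulae by -1.201 ± 0.41 on the log2 scale (unadjusted p = 0.0104, adjusted p = 0.232, edgeR), in a comparison that called 0.228% of all genes and none of the 6. In the Gabpb1 cross the blastocyst minus morula value was -0.65 ± 0.39 (adjusted p = 0.799), and the difference between the stage values of the crosses was 1.36 ± 0.54 (adjusted p = 0.303). For the morulae labelled Gabpb1 KO it was 0.26 ± 0.40 (adjusted p = 0.754), and the difference between the KO values of the crosses, Gabpb1 minus Alyref, was 1.46 ± 0.57 (adjusted p = 0.212). The tests thus left it undecided whether the crosses differ in their H2-K1 values by stage or by genotype.

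H2-D1, the other classical heavy chain of the table, followed another order. Morulae labelled Alyref KO were at 198 and 26.4 CPM, their non-KO siblings at 43.9, 69.5 and 77.6, and the Alyref non-KO blastocysts at 48.7, 45.1 and 62.4. Morulae labelled Gabpb1 KO were at 56.5, 20.4 and 22.3 CPM, the Gabpb1 non-KO morulae at 78.3 and 165, the Gabpb1 non-KO blastocysts at 20.6, 79.8 and 111, and the WT blastocysts at 195, 92.9 and 93.9. No neighbouring groups in the order of means were separated, and the embryos of a group differed up to 7.49-fold, in the Alyref KO morulae. The highest H2-D1 value of all, 198 CPM in Alyref KO morula 1, came with an H2-K1 value of 31.3 in the same embryo.

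All 3 morulae labelled Gabpb1 KO had less H2-D1 than both non-KO morulae of the cross, a log2 difference of -1.88 ± 0.72 (unadjusted p = 0.0198, adjusted p = 0.184, edgeR). It was -1.25 without Gabpb1 non-KO morula 2 and -2.51 without the morula labelled Gabpb1 KO 1. In that comparison 1.65% of all genes and none of the 6 were called. The share of all genes that separate these embryos without overlap was not counted. The KO difference of H2-D1 in the Gabpb1 cross minus that in the Alyref cross was -2.69 ± 1.02 (adjusted p = 0.203), and without Alyref KO morula 1 it was -0.63. Part of either gene cannot be told from its relatives by short reads: 9.63% of the 50-base stretches of H2-K1 transcripts also occur in transcripts of other genes, most often H2-Q10, and 12.8% of those of H2-D1, most often H2-Q1. The mm10 reference is of C57BL/6, and class I genes are known to differ between mouse strains. Single embryos may differ in the C57BL/6 and DBA/2 alleles they carry, and the effect of these alleles on the counts was not tested.

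Other class I heavy chains were far lower than H2-K1 and H2-D1. Of 21 listed, 18 were in the table and 13 were tested, and the highest means were those of H2-Q6 (2.95 FPKM) and H2-K2 (2.17 FPKM). H2-Q7, a nonclassical heavy chain of the Qa-2 family, was lower in Alyref non-KO blastocysts (2.05 ± 0.637 CPM, n = 3) than in non-KO morulae (8.12 ± 5.87, n = 3), with a log2 fold change of -1.99 ± 0.53 and an adjusted p of 0.026 (edgeR). No other gene of the list passed in any of the 8 comparisons. That is 7.69% of the 13, beside 13% of all genes called in that comparison. There 11 of the 13 had negative values, beside 51.7% of all tested genes, with a median log2 fold change of -0.73 against -0.04 for all genes. From morulae to blastocysts of the Gabpb1 cross it was also 11 of 13, beside 47.5% of all genes, with a median of -0.66 against 0.02. These genes share sequence with each other and with H2-K1, so their counts are not separate measurements.

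B2m, the light chain common to all these molecules, ranked the groups differently again. The morulae labelled Gabpb1 KO were at 139, 212 and 81.1 CPM, the Gabpb1 non-KO blastocysts at 59.3, 185 and 47.1, and the Gabpb1 non-KO morulae at 69.1 and 84.0. The Alyref KO morulae were at 67.1 and 35.7, the Alyref non-KO blastocysts at 36.8, 52.3 and 37.9, the WT blastocysts at 35.4, 26.4 and 40.9, and the Alyref non-KO morulae at 17.97, 30.2 and 45.4. The 8 embryos of the Gabpb1 cross, from 47.1 to 212 CPM, were mostly above the 11 others, from 17.97 to 67.1. Gabpb1 non-KO morulae and Alyref KO morulae were the only neighbours in the order of means with separate ranges. How often other genes separate them was not examined.

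B2m was 1.30 ± 0.53 higher on the log2 scale in Gabpb1 than in Alyref non-KO morulae (unadjusted p = 0.0265, adjusted p = 0.169, edgeR) and 1.195 ± 0.49 higher in Gabpb1 than in Alyref non-KO blastocysts (unadjusted p = 0.0259, adjusted p = 1). The blastocyst value was 0.31 without Gabpb1 non-KO blastocyst 2, the embryo at 185 CPM. Neither difference passed the threshold. Between KO and non-KO morulae B2m differed by 0.72 ± 0.53 in the Alyref cross (adjusted p = 0.65) and by 0.91 ± 0.55 in the Gabpb1 cross as labelled (adjusted p = 0.387). Cross and any batch of culture or library preparation cannot be told apart here, since the labels name none. The embryo with the most B2m, labelled Gabpb1 KO morula 2 (212 CPM), also had the highest sum of 7 blood and immune markers, 131.6 CPM against 5.05 in the lowest embryo. That sum ran from 7.403 to 131.6 CPM in the morulae labelled Gabpb1 KO and from 32.25 to 79.18 in their non-KO siblings. In all Alyref morulae it was 5.05 to 12.94. Ptprc was at 0 in every morula, so these sums come from other markers of the list. The part of the sum in the B2m values was not tested.

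Tap1 was high in the morulae of the Gabpb1 cross. The Gabpb1 non-KO morulae were at 11.7 and 34.6 CPM and those labelled Gabpb1 KO at 20.7, 11.6 and 17.5. All 14 other embryos were lower, with Alyref KO morulae at 7.92 and 3.87, Alyref non-KO morulae at 4.72, 4.39 and 4.73, Alyref non-KO blastocysts at 6.67, 2.23 and 5.50, Gabpb1 non-KO blastocysts at 1.81, 6.28 and 7.22, and WT blastocysts at 6.30, 2.30 and 0.538. This order of embryos was seen after the values were known, and how often other genes share it was not examined.

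Between non-KO morulae of the crosses, Tap1 differed by 2.32 ± 0.76 on the log2 scale, Gabpb1 minus Alyref (unadjusted p = 0.00742, adjusted p = 0.103, edgeR). In that comparison edgeR called 1.86% of all genes and none of the 6, while DESeq2 called Tap1 (2.35, adjusted p = 0.025). Without Gabpb1 non-KO morula 2, the embryo at 34.6 CPM, the value was 1.34. From Gabpb1 non-KO morulae to blastocysts Tap1 differed by -2.18 ± 0.76 (unadjusted p = 0.011, adjusted p = 0.595), and the difference between the stage values of the crosses was -2.24 ± 1.02 (adjusted p = 0.351). Without the same morula these were -1.19 and -1.25.

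Tap2, the partner of Tap1 in the transporter, was close to the detection limit. Its counts were 50 and 49 in the Gabpb1 non-KO morulae, 25, 4 and 11 in the morulae labelled Gabpb1 KO, 11 and 19 in the Alyref KO morulae and 12, 10 and 1 in the Alyref non-KO morulae. In the 9 blastocysts it had 1, 4 and 3 counts (Alyref), 1, 2 and 0 (Gabpb1) and 3, 0 and 0 (WT). The Gabpb1 non-KO morulae, at 3.56 and 3.73 CPM, were above every other embryo, and blastocysts were mostly at or below the level of 3 counts. How often other genes share this order was not examined. Of Tap2 exon bases, 14.1% overlap Gm15821 on the opposite strand, and the sources used here do not say whether strand was used in counting.

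Tapbp, the bridge between transporter and heavy chain, was at 0.506 to 3.75 CPM. WT blastocysts were at 3.75, 3.14 and 3.56, Alyref non-KO blastocysts at 2.26, 3.29 and 3.32, Gabpb1 non-KO blastocysts at 2.63, 1.90 and 2.26 and Gabpb1 non-KO morulae at 2.99 and 3.65. Morulae labelled Gabpb1 KO were at 3.53, 1.57 and 1.14, Alyref KO morulae at 0.660 and 1.80 and Alyref non-KO morulae at 1.19, 0.506 and 3.69. All neighbours in the order overlapped, and no comparison passed with all embryos. Without Alyref non-KO morula 3, the embryo at 3.69 CPM, Tapbp passed in 2 comparisons that use its group: Alyref non-KO blastocysts against morulae (log2 fold change 0.70 with it, 1.76 without, adjusted p = 0.0337) and Gabpb1 against Alyref non-KO morulae (0.87 with it, 1.93 without, adjusted p = 0.0452). Of its exon bases, 20.2% overlap Gm19412 on the opposite strand.

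Of 13 other genes of peptide loading and trimming 12 were tested, led by the endoplasmic reticulum chaperones Calr (154 FPKM) and Pdia3 (151 FPKM), both with general roles in protein folding. None of the 12 passed in any of the 8 comparisons by edgeR. In Gabpb1 against Alyref non-KO morulae 10 of the 12 had positive values, beside 47.8% of all tested genes, with a median log2 fold change of 0.41 against -0.03 for all genes.

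**Figure D2:**
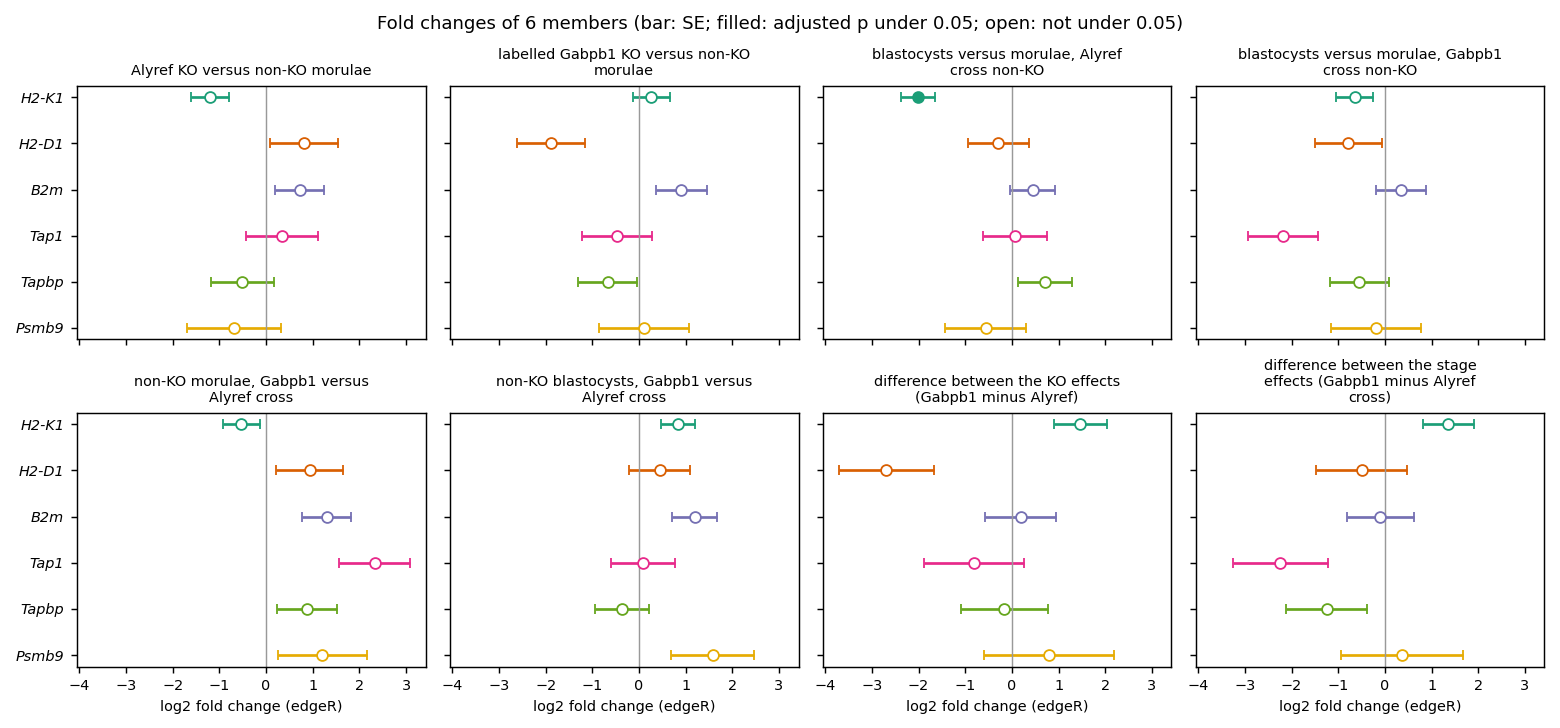
Log2 fold changes (horizontal axis, with bars of 1 SE) of the 6 tested genes in the 8 comparisons, from edgeR over all 19 embryos; a filled point has an adjusted p under 0.05. The single filled point is H2-K1 in Alyref non-KO blastocysts against morulae, at -2.01.

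The immunoproteasome subunits were a small share beside their constitutive counterparts. Psmb8 had 2 and 5 counts in the Alyref KO morulae, 2 counts in Gabpb1 non-KO blastocyst 3 and 0 in the other 16 embryos, where a count of 0 allows up to 0.355 CPM, by counting error alone, in the shallowest of those libraries. Its constitutive counterpart Psmb5 was at 340 to 719 FPKM, so that Psmb8 made up at most 0.03% of the pair in any embryo. Psmb9 made up 0.041% to 2.09% of its pair with Psmb6 (median 0.737%), with Psmb6 at 286 to 705 FPKM. Psmb10, whose gene lies outside the MHC region, made up 1.52% to 15.1% of its pair with Psmb7 (median 6.59%). All 3 constitutive subunits were tested and none passed in any of the 8 comparisons, and Psmb6 (462 FPKM) and Psmb5 (445 FPKM) were the most abundant genes of all the lists used here.

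Psmb9 itself was at 39.9, 12.1 and 17.95 CPM in the morulae labelled Gabpb1 KO, 23.8 and 19.8 in the Gabpb1 non-KO morulae and 10.8, 23.6 and 22.8 in the Gabpb1 non-KO blastocysts. In the Alyref cross it was at 11.1 and 0.867 CPM in KO morulae, 10.8, 2.45 and 15.0 in non-KO morulae and 9.93, 1.92 and 7.21 in non-KO blastocysts, and WT blastocysts were at 21.6, 4.16 and 4.10. Embryos of the Gabpb1 cross, from 10.8 to 39.9, mostly exceeded the others, but all neighbours in the order of means overlapped. The widest spread within a group was 12.8-fold, in the Alyref KO morulae. No comparison of Psmb9 passed, and the difference nearest to it was Gabpb1 against Alyref non-KO blastocysts at 1.58 ± 0.89 (unadjusted p = 0.0949, adjusted p = 1, edgeR).

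Psmb9 and Tap1 are neighbours that are transcribed away from each other, with RefSeq starts at 34187330 and 34187556 on chromosome 17 and 225 bases between them. In the annotation used for counting, their exons overlap by 212 bases on opposite strands, which is 3.87% of Tap1 and 5.79% of Psmb9. Reads from that stretch cannot be assigned to either gene unless strand was used. In the Gabpb1 cross, from non-KO morulae to blastocysts Psmb9 differed by -0.19 ± 0.96 on the log2 scale and Tap1 by -2.18 ± 0.76 (-1.19 without Gabpb1 non-KO morula 2), with neither passing and the difference between the genes not tested.

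**Figure D3:**
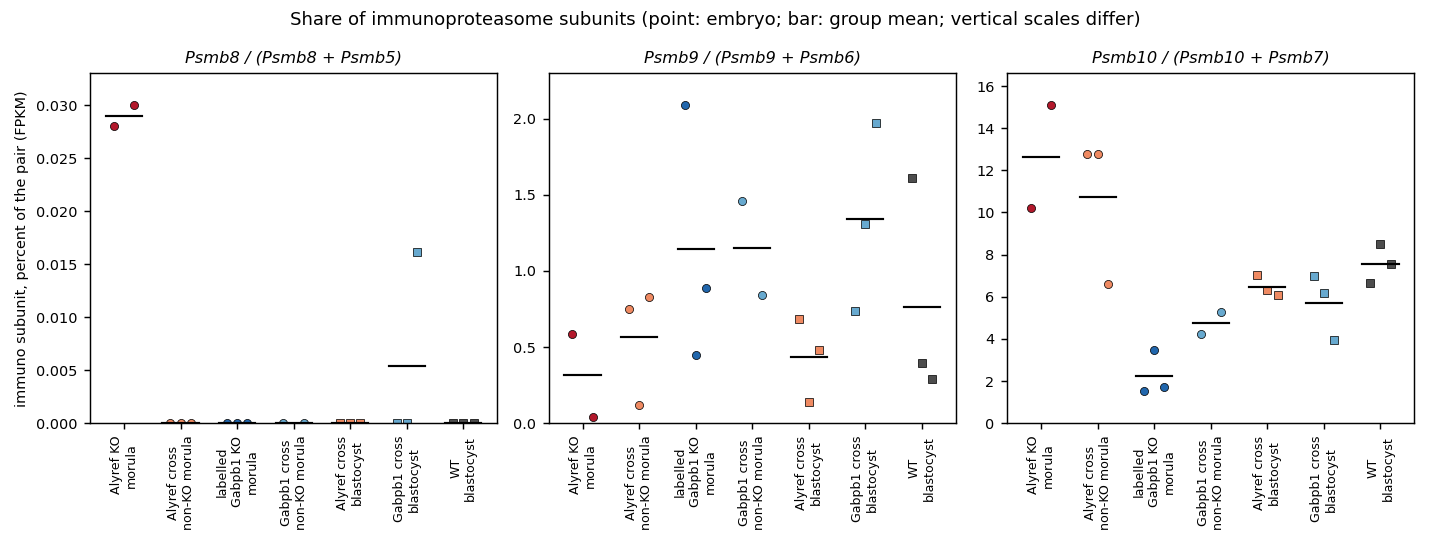
Share of the immunoproteasome subunit in its pair with the constitutive subunit, in percent of summed FPKM (vertical axis, each panel with its own scale), for Psmb8 with Psmb5, Psmb9 with Psmb6 and Psmb10 with Psmb7; points are the 19 embryos by group. Shares are at most 0.03% for Psmb8, at most 2.09% for Psmb9 and at most 15.1% for Psmb10.

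Ubd was detected above 3 counts in WT blastocysts and in no other embryo. The 3 WT blastocysts had 19, 26 and 48 counts, or 1.27, 1.66 and 3.23 CPM, while all 6 blastocysts of the crosses had 0 counts. Among the 10 morulae, 8 had 0 counts, Alyref non-KO morula 3 had 1 and Gabpb1 non-KO morula 2 had 3. Against a floor of 3 counts per library, Ubd was at least 10.9-fold lower in the Alyref and at least 7.51-fold lower in the Gabpb1 non-KO blastocysts than in WT blastocysts. This is the pattern by which the gene was chosen, and the bounds cover counting error only, since the reads carry no molecular identifiers and PCR copies cannot be told from separate molecules.

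Enzymes and partners of Ubd were set beside it in the blastocysts as a sum of 5 genes. That sum was 290.2 to 363.7 CPM in WT, 354 to 365.5 in Alyref non-KO and 385.7 to 467.9 in Gabpb1 non-KO blastocysts. All 5 listed genes were tested, among them Uba6, the activating enzyme, and Sqstm1, an autophagy receptor that had the highest mean (80.3 FPKM). Nub1, which binds Ubd and speeds its degradation (72.8 FPKM), fell from 591 ± 334 CPM (n = 3) in Alyref non-KO morulae to 132 ± 9.81 (n = 3) in blastocysts of the cross, a log2 fold change of -2.16 ± 0.42 with an adjusted p of 0.00864 (edgeR). WT blastocysts, in which Ubd was detected, were at 131 ± 23.9 CPM of Nub1, and Gabpb1 non-KO blastocysts, in which it had 0 counts, at 163 ± 54.7. No other gene of the 5 passed in any comparison. The call of Nub1 is 20% of the 5, beside 13% of all genes called in that comparison. WT blastocysts are in none of the tested comparisons, so these tests do not bear on the pattern of Ubd.

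Across the 8 comparisons the 6 genes gave 1 call by edgeR, that of H2-K1 in Alyref non-KO blastocysts against morulae. There 13% of all genes were called, and 7.43% were called lower. That call uses the blastocysts whose low H2-K1 against WT helped to choose the gene. None of the 6 passed in either KO comparison, in the stage comparison of the Gabpb1 cross (0% of all genes called), in the comparison of non-KO blastocysts between crosses (0% called), or in the differences of KO values (0.907% called) and of stage values (0.00543% called). By edgeR at an unadjusted p under 0.05, 2 of the 6 were found between the non-KO morulae (22.4% of all genes), between the non-KO blastocysts (3.51%), in the difference of KO values (16.8%) and in the difference of stage values (13.8%). There was 1 of the 6 in each of the other 4 comparisons, which were Alyref KO (12.1% of all genes), labelled Gabpb1 KO (18.9%), Alyref stage (31.1%) and Gabpb1 stage (6.72%). For all genes the unadjusted counts were 1237 in the Gabpb1 stage comparison and 646 between the non-KO blastocysts, where DESeq2 called 57 and 16 genes and none of the 6. Where edgeR called none of the 6, DESeq2 called none either, except Tap1 between the non-KO morulae. The median log2 fold change of the 6 was 1.07 between the non-KO morulae and 0.64 between the non-KO blastocysts of the crosses, Gabpb1 minus Alyref, against -0.03 and 0.01 for all genes. In the other comparisons it was -0.08 (Alyref KO), -0.19 (labelled Gabpb1 KO), -0.12 (Alyref stage) and -0.60 (Gabpb1 stage), against -0.04, 0.06, -0.04 and 0.02 for all genes.

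Of 26 listed regulators of class I transcription 18 were tested, the highest being Gabpa (33.4 FPKM), the DNA-binding partner of Gabpb1, and Ctcf (25.4 FPKM), a chromatin architecture factor. Nlrc5, the class I transactivator, had 0 counts in 12 embryos and at most 8 in any, and Irf1, an interferon-induced factor known to act on Tap1 and Psmb9, was at most 8.61 CPM, in a Gabpb1 non-KO morula. Ifnar2, a chain of the type I interferon receptor, was lower in the morulae labelled Gabpb1 KO (0.708 ± 0.587 CPM, n = 3) than in their non-KO siblings (7.40 ± 2.61, n = 2), at -3.38 ± 0.74 (adjusted p = 0.0362, edgeR). In the Alyref cross it was higher in non-KO blastocysts (10.8 ± 4.75) than in non-KO morulae (2.09 ± 2.07), at 2.37 ± 0.65 (adjusted p = 0.029). Relb, an NF-kB subunit, and Rfxap, a subunit of the RFX factor that binds MHC promoters, fell between the same groups by 2.14 ± 0.63 (adjusted p = 0.0383) and 0.93 ± 0.29 (adjusted p = 0.0447). No other regulator passed in any comparison. In the Alyref stage comparison 16.7% of the 18 were called, beside 13% of all genes. Between the morulae labelled Gabpb1 KO and their siblings it was 5.56%, beside 1.65% of all genes.

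Interferon-stimulated genes gave little signal. Of 25 listed, 5 passed the filter on low values, led by Bst2, a membrane tether (35.7 FPKM), and Socs1, a cytokine signalling inhibitor (17.3 FPKM), and Ifit1, Ifit2 and Ifit3 had 0 counts in all 19 embryos. Ifi35 was lower in Alyref non-KO blastocysts (3.02 ± 0.708 CPM, n = 3) than in non-KO morulae (11.1 ± 6.66, n = 3), at -1.88 ± 0.54 (adjusted p = 0.0341, edgeR), and no other passed. That is 20% of the 5, beside 13% of all genes called in that comparison. Rsad2, an antiviral enzyme, was at 25.3 CPM in 1 Gabpb1 non-KO morula, at 0.456 in the other and at 0 in 15 of the 19 embryos; it was picked out after its values were seen.

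The neighbours of the genes on chromosome 17 were counted beside all genes, with no test of the difference. Between 500 kb before Tapbp and 500 kb after Ubd (chr17:33415899-37696095), 356 genes outside the 9 were in the table and 170 were tested. In the Alyref stage comparison 12.4% of them were called, 7 higher and 14 lower, beside 13% of all genes. The lowest adjusted p-values were those of March2, a ubiquitin ligase (2.27 ± 0.43), and Lst1, a leukocyte-specific transcript (-2.51 ± 0.49), with Gm8741 (-1.31 ± 0.25) and Gm8696 (-1.37 ± 0.29), and the pluripotency factor Pou5f1 was also called (-0.80 ± 0.24). Between the morulae labelled Gabpb1 KO and their siblings 2.35% were called beside 1.65% of all genes: Trim39 (1.86 ± 0.41), Gpsm3 (-3.97 ± 0.93), Znrd1as (1.61 ± 0.38) and Ly6g6c (2.62 ± 0.63). Between non-KO morulae of the crosses 2.94% were called beside 1.86% of all, among them Ly6g6c (-2.96 ± 0.63), Lst1 (-2.68 ± 0.58), Mrps18b (-0.74 ± 0.17) and Gm16279 (-0.75 ± 0.18). None of the 170 was called in the other 5 comparisons.

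MHC class II genes, which present peptides from outside the cell and are normally confined to immune cells and thymic epithelium, were high in single embryos of several groups. H2-Ab1, a class II beta chain, was at 160 and 1.47 CPM in the Alyref KO morulae and at 0.109, 105 and 22.6 in their non-KO siblings, and Cd74, the invariant chain, was at 138 and 0 in the former and at 0, 61.9 and 22.1 in the latter. Morula 2 of those labelled Gabpb1 KO had 55.5 CPM of H2-Ab1 and 29.2 of Cd74. The class II transactivator Ciita was at 3.83 CPM in Alyref KO morula 1 and at 15.9 in Alyref non-KO morula 2 and had 0 counts in 11 embryos, and Ctss, a protease of antigen-presenting cells, had at most 1 count. Of 11 class II genes 8 were tested, H2-Ab1 (13.0 FPKM) and Cd74 (11.2 FPKM) having the highest means, and none passed in any comparison by edgeR. Alyref KO morula 1, with the highest class II sum of all embryos (536.1 CPM), had the highest H2-D1 (198 CPM) and 31.3 CPM of H2-K1. Alyref non-KO morulae 2 and 3, with class II sums of 407.5 and 80.81 CPM, had 42.7 and 49.0 CPM of H2-K1, and Alyref non-KO morula 1, with a sum of 27.09, had 74.2. Alyref KO morula 2, with the lowest class II sum of all embryos (12.14 CPM), had 17.01 CPM of H2-K1, so the 2 did not go in a fixed order. A relation between them was not tested.

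**Figure D4:**
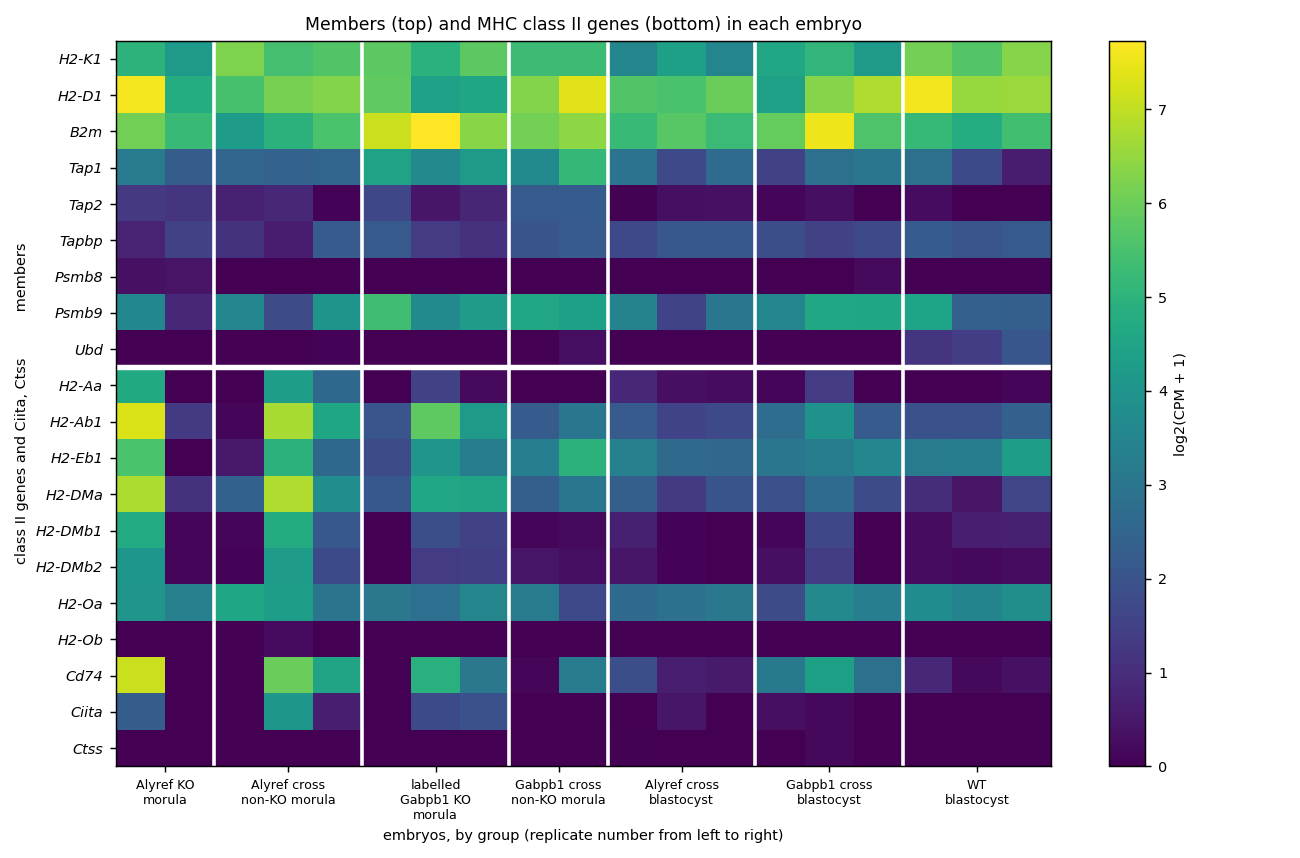
Heat map of log2(CPM + 1) of the class I pathway genes (top) and of MHC class II genes with Ciita and Ctss (bottom) in the 19 embryos (columns, by group). B2m and H2-D1 are present in every column, while class II genes are strong in single columns such as Alyref KO morula 1 (H2-Ab1 at 160 CPM) and Alyref non-KO morula 2 (105 CPM).

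Blastocysts of the crosses are set beside WT blastocysts as a description, since this contrast chose the genes. Mean H2-K1 was 4.79-fold higher in WT (65.8 ± 15.1 CPM, n = 3) than in Alyref non-KO blastocysts (13.7 ± 5.46, n = 3) and 2.69-fold higher than in Gabpb1 non-KO blastocysts (24.5 ± 8.03, n = 3), with no overlap in either. As log2 ratios of cross over WT these are -2.26 and -1.42, and they stayed between -2.64 and -2.05 and between -1.70 and -1.22 when each blastocyst was left out or the scaling was changed. Mean H2-D1 was 2.44-fold higher in WT than in the Alyref cross with no overlap, and 1.80-fold higher than in the Gabpb1 cross with overlapping embryos. Being lower in all 3 embryos of a cross than in all WT embryos was the case for 6.15% of tested genes in the Alyref cross and 6.33% in the Gabpb1 cross, and for 1.92% in both.

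B2m was the other way round from the heavy chains in that contrast. It was 2.84-fold higher in the Gabpb1 cross than in WT (97.1 ± 76.3 against 34.3 ± 7.32 CPM) with no overlap, which held for 6.51% of genes in this direction, and its log2 ratio of 1.503 was 0.64 without Gabpb1 non-KO blastocyst 2. In the Alyref cross B2m overlapped WT. Tapbp was 1.54-fold higher in WT than in the Gabpb1 cross with no overlap and overlapped in the Alyref cross, where its mean was also lower than in WT. Tap1 and Psmb9 overlapped in both, and the Psmb9 log2 ratio of the Gabpb1 cross over WT, 0.94, was 2.21 without WT blastocyst 1. The Psmb9 ratio of the Alyref cross over WT, -0.65, turned to 0.62 without the same embryo. WT and cross embryos differ in their parents, and the labels give no batch, so that parentage and batch cannot be told apart.

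The genes whose log2(CPM + 1) over the 19 embryos was most like that of H2-K1 were Rdm1 (Pearson's r = 0.693), Gm5614 (0.631) and Gm13192 (0.624). Those most like B2m were Dcxr, an enzyme of carbohydrate metabolism (0.827), Gm22516 (0.821) and Gm37421 (0.817), of which Gm22516 had a mean of only 0.0744 CPM. Those most like Ubd were A730049H05Rik (0.96), 1700057H21Rik (0.908) and Lefty2, a Nodal antagonist (0.894), with low means of 0.68, 0.202 and 1.24 CPM. Ubd was chosen for its difference between WT and cross blastocysts, so its correlations restate that pattern and give no support for it. All 19 points share the groups described above, Ubd had 0 counts in 14 of them, and none of the genes on these lists is on chromosome 17.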

How the data were processed

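Per the labels' protocols, polyA RNA of single zona-free embryos was reverse transcribed with ERCC spike-in RNA added after lysis, amplified by PCR and sequenced in paired reads on a NextSeq. Per the submitters' processing notes, reads were trimmed with Trimmomatic, Trim Galore and cutadapt, aligned to mm10 with STAR and counted with featureCounts; versions and the use of strand are not given in the sources used here. KO embryos were called by the submitters from the same libraries. The deposited table of counts per gene, raw and not normalized by the authors, although its name says FPKM, was the start of all values; the planned test for FPKM was therefore replaced by the one for counts.

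CPM were computed with TMM-scaled library sizes and FPKM with plain library totals, both over genes without the 92 ERCC entries. Genes with 1 FPKM in at least 2 embryos (18410 of 39262 with any count) were fitted in edgeR 4.0.16 (R 4.3.3) with a mean per group over all 19 embryos, quasi-likelihood tests, and Benjamini-Hochberg adjustment over all tested genes, called at 0.05. SE was obtained from each log2 fold change and its quasi-likelihood F (|log2 fold change| over root F). The script was tested on simulated counts. p-values measure the spread between these embryos, and cross and batch are not separable. Alternatives were RLE and ERCC scaling, DESeq2 1.42.0, filterByExpr or no filter, only the compared groups, a replicate block and leaving out each embryo; for cross against WT values they were CPM of the plain total, ERCC scaling, same-numbered differences and leaving out each blastocyst.

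The genes, lists and tests were chosen with earlier results of these data known. Named besides the 9 were list genes with an adjusted p under 0.05 by edgeR (up to 4 per list and comparison) and the 2 most abundant of each pathway list. The 3 genes most like H2-K1, B2m and Ubd were named too. Nlrc5, Irf1, Ifit1, Ifit2, Ifit3, Rsad2, Ciita, Ctss, Ptprc, Uba6 and Pou5f1 were named outside these rules and picked by no set rule. The targeted genes, the proteasome pairs and genes of shared or overlapping sequence were also named. Overlapping exons and shared 50-base stretches were taken from the annotation and transcripts of GENCODE. Promoters are from RefSeq (GRCm38.p6).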

Additional observations from a re-analysis of the deposited data

How the results depend on the processing

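The number of the 6 genes called was 1 in Alyref non-KO blastocysts against morulae, and it was 0 with ERCC library sizes, 0 with only the compared groups in the fit, and 1 to 2 when each embryo was left out. Between non-KO morulae of the crosses it was 0, and it was 1 with DESeq2 and 0 to 1 when each embryo was left out. Of the alternatives to the counts of called genes, 104 gave the same count and 5 another. Single fold changes were rechecked only where the unadjusted p was under 0.05 (edgeR) or some alternative called the gene. Of the alternatives to these, 189 kept direction and call and 2 lost the call (H2-K1). Another 3 gained it (Tap1 with DESeq2, Tapbp without Alyref non-KO morula 3). None turned the direction, which this choice of the clearer differences made likely, and the other fold changes were not rechecked. Of 124 alternatives to the cross against WT values, 122 moved less than the spread between embryos and 2 more. A change of sign did not by itself count as a move: Psmb9 in the Alyref cross over WT went from -0.65 to 0.62 without WT blastocyst 1. With ERCC library sizes the median log2 fold change of all genes moved to between -0.86 and 0.39 over the 8 comparisons, so the H2-K1 value of -2.35 there is to be read against -0.34 for all genes. For all genes the number called in Alyref non-KO blastocysts against morulae was 2402 with TMM, 352 with ERCC library sizes and 3762 with DESeq2.

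Replicate numbers did not pair the embryos: over log2 values, 10 of 52 same-numbered pairs and 19 of 102 others had a correlation over 0.1. With the replicate block the counts of called genes were as without it, 1 in Alyref non-KO blastocysts against morulae and 0 elsewhere, and H2-K1 was at -1.97 (adjusted p = 0.0125, edgeR) there. A group left with 1 embryo is assumed to vary like the others. The pseudocount alternative was not run, since the table holds counts. Depth limits Tap2, Psmb8 and Ubd most, which had at most 50, 5 and 48 counts in any embryo.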

Other observations

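Markers of 3 cell types from outside the embryo were summed. The 7 blood and immune markers ran from 5.05 to 131.6 CPM, the highest being morula 2 of those labelled Gabpb1 KO and the next Gabpb1 non-KO morula 1 at 79.18. The 10 cumulus and granulosa markers summed to 4.578 to 24.07 CPM over the 19 embryos, with morulae from 8.253 to 24.07 and blastocysts from 4.578 to 10.13. The 5 sperm markers summed to at most 2.013 CPM. Epiblast and inner cell mass markers, 6 genes, summed to 173.4 to 660.8 CPM and were highest in the Alyref KO morulae (621.9 and 660.8). Primitive endoderm markers, 6 genes, summed to 274.1 to 1296 CPM.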
